A study of Homo sapiens with 4 samples.

Results

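The genes described here are the writers of N6-methyladenosine (m6A) in RNA: the subunits METTL3, METTL14, WTAP, VIRMA, ZC3H13, RBM15, RBM15B and CBLL1 of the nuclear m6A methyltransferase complex, the separate methyltransferase METTL16, and MAT2A, whose messenger is a substrate of METTL16. All transcripts listed under these 10 gene names were kept, which gave 55 of the 75165 transcripts and 10 of the 20298 genes in RIP-seq of YTHDC1. RIP-seq sequences the RNA that an antibody recovers together with a protein, and sequences the starting lysate as input. MDA-MB-231, an established triple negative breast cancer line of mesenchymal character, received 3x flag-YTHDC1 under a CMV promoter by lentivirus (multiplicity of infection 4), and transduced cells were selected for 4 days with 2 μg/ml puromycin. All 4 libraries came from these overexpressing cells. Nuclei were isolated after 3 UV exposures of 120000 μJ/cm2. The 2 Flag-YTHDC1 IP libraries came from nuclear lysate with 500 μg of protein and the 2 input libraries from lysate with 50 μg of protein.

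Each value below is a mean normalized count, the authors' mean over the IP and input libraries together. It therefore says how many reads a transcript drew in the experiment as a whole and not how far it was recovered with YTHDC1. No value of a single library was at hand, so the values carry no SD, no replicate test could be run and the depth of each library is unknown. IP against input is not analysed here. The authors removed transcripts with few reads, so a transcript or gene that is not listed may still have been sequenced. Counts grow with transcript length, and no transcript lengths were at hand. Counts are therefore set side by side as read support, mostly as shares within a gene, and never as expression levels of different genes. Transcripts of the same gene can also differ in length. The shares and ratios within a gene are therefore of counts and not of RNA molecules.

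The complex methylates adenosines of nascent and newly made messengers in the nucleus. METTL3 carries the catalytic site and forms a heterodimer with METTL14, which helps hold the RNA. WTAP, VIRMA, ZC3H13 and CBLL1 form the regulatory part that keeps the heterodimer in the nucleus and directs it, and RBM15 and RBM15B are RNA-binding adaptors. METTL16 works outside this complex, on the spliceosomal U6 snRNA and on hairpins of the MAT2A messenger. MAT2A makes S-adenosylmethionine, the methyl donor of all these enzymes, and splicing of an intron retained in its messenger is tied to METTL16. YTHDC1 is the nuclear reader of the mark.

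All 10 genes were listed with at least 1 protein-coding transcript. In 9 of them the leading transcript, the one with the highest mean normalized count, was protein-coding. Most genes were led this way: 88.2% of the 10075 protein-coding genes with at least 2 listed transcripts and 100 mean normalized counts. RBM15B, with a single listed transcript, is among the 9 but falls outside that set. In METTL16 a nonsense-mediated-decay transcript had the highest value, 1.10 times that of the protein-coding one, and with no value per library the order of these transcripts is uncertain. The 55 transcripts comprised 28 protein-coding, 11 retained-intron and 9 nonsense-mediated-decay transcripts, together with 7 processed transcripts, which have no annotated reading frame. Nonsense-mediated-decay transcripts carry an early stop codon that marks them for degradation. Over the whole table, 52.3% of transcripts were protein-coding, 15.4% retained-intron, 8.65% nonsense-mediated-decay and 12.7% processed transcripts, against 50.9%, 20%, 16.4% and 12.7% among the members. The sets are unlike, since the whole table also holds noncoding RNA genes and further transcript types, whereas all 10 members are protein-coding genes. Mean normalized counts ran from 4.91 for METTL16-202 to 7320 for RBM15B-201, with a median of 107 against 44.2 over the whole table. At least 100 mean normalized counts were reached by 28 member transcripts (50.9%, against 34.6% of the table), and 5 lay under 10 (9.09%, against 17.2%). By counts the picture was less even, since protein-coding transcripts held 93.2% of the members' summed counts, nonsense-mediated-decay transcripts 3.97%, retained-intron transcripts 2.20% and processed transcripts 0.630%. This sum is weighted towards RBM15 and RBM15B, which drew the most reads. With each of the 10 genes weighted equally, the mean shares were 83.3% protein-coding, 10.4% nonsense-mediated-decay, 4.87% retained-intron and 1.46% processed transcripts. Over the 10075 protein-coding genes described above, the mean shares were 81.5%, 7.02%, 5.45% and 5.97% in the same order. The member means include RBM15B, whose single listed transcript is protein-coding and which those genes leave out.

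**Figure D1:**
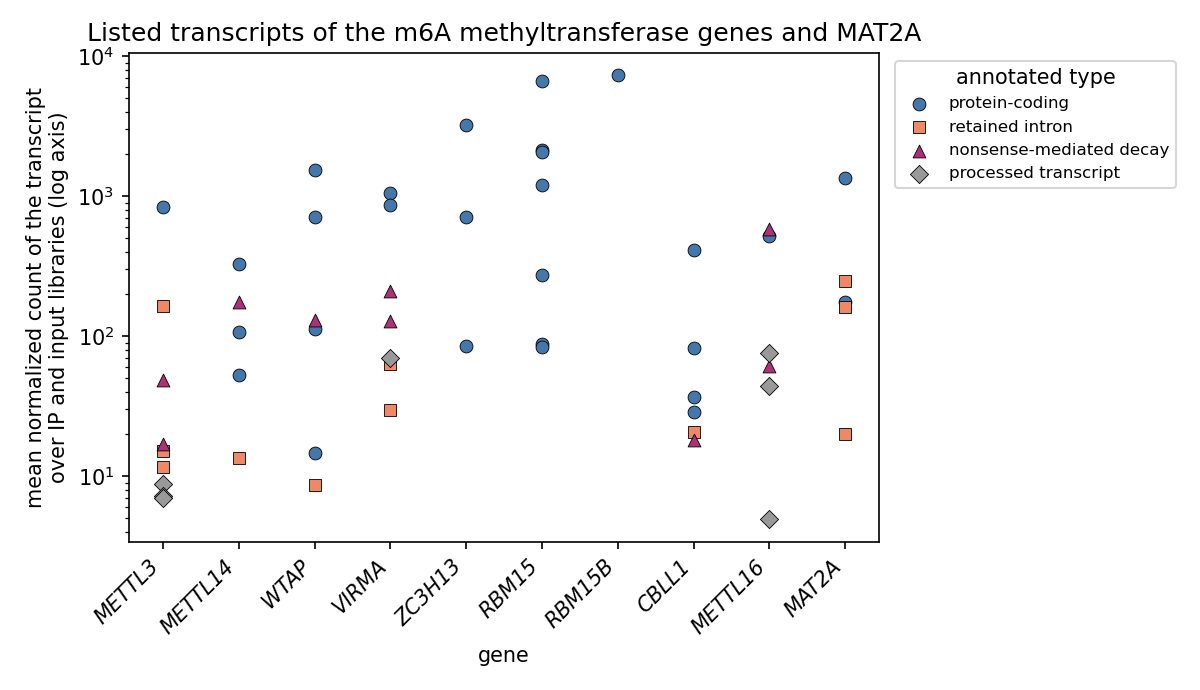
Each point is 1 listed transcript of the gene on the horizontal axis, placed by its mean normalized count over the IP and input libraries (log axis) and marked by its annotated type. In METTL16 the highest point is a nonsense-mediated-decay transcript at 579, just above the protein-coding one at 524, whereas a protein-coding transcript stands highest in the other genes.

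METTL3, the catalytic subunit (ENSG00000165819.12; GRCh38 chromosome 14, 21498138 to 21511340), had 9 listed transcripts with 1123 mean normalized counts in all. Its single listed protein-coding transcript, METTL3-201 (ENST00000298717.9), had 843 counts, which was 75.1% of the gene and 5.10 times the next transcript. That was METTL3-209 (ENST00000542054.5), a retained-intron transcript, with 165 counts or 14.7%. The other 7 ran from 6.97 to 48.3 counts and together made up 10.2%. Over its 3 retained-intron transcripts METTL3 had a share of 17.1%, and over its 2 nonsense-mediated-decay transcripts 5.80%.

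METTL14 (ENSG00000145388.15; chromosome 4, 118685392 to 118715430), the partner of METTL3, was more divided. Its 5 transcripts had 677 counts in all, of which the protein-coding METTL14-201 (ENST00000388822.10) held 328 or 48.5%. METTL14-205 (ENST00000626212.2), annotated as nonsense-mediated decay, followed with 176 counts, 26.1% of the gene. The protein-coding METTL14-203 had 107 counts (15.7%) and METTL14-204 had 52.5 (7.75%), and the retained-intron METTL14-202 had 13.4. The second transcript was thus a nonsense-mediated-decay transcript in METTL14 and a retained-intron transcript in METTL3. For METTL3 it could not be protein-coding, since the only listed protein-coding transcript of that gene was the leading one. In MAT2A the retained-intron MAT2A-203 came second. How often the second transcript is not protein-coding among the genes of the table was not tested.

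Among the regulatory subunits, WTAP (ENSG00000146457.16; chromosome 6, 159726693 to 159756319), which binds the heterodimer and brings it to nuclear speckles, had 2518 counts over 6 transcripts. WTAP-206 (ENST00000621533.5) held 1543 counts or 61.3% and WTAP-201 (ENST00000337387.4) 710 counts or 28.2%, both protein-coding. WTAP-208, a nonsense-mediated-decay transcript, had 130 counts (5.16%), and the other 3 ran from 8.63 to 112. Most of the WTAP reads thus fell to 2 coding transcripts.

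VIRMA (ENSG00000164944.12), the large scaffold of the complex, had 2437 counts over 7 transcripts and no transcript that held most of them. The protein-coding VIRMA-202 (ENST00000421249.2) had 1062 counts (43.6%) and VIRMA-201 (ENST00000297591.10), also protein-coding, 872 (35.8%), a ratio of 1.22. Nonsense-mediated-decay transcripts followed, VIRMA-203 with 211 counts (8.66%) and VIRMA-208 with 129 (5.31%). The other 3, a processed transcript and a pair with retained introns, ran from 29.6 to 69.8 counts.

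ZC3H13 (ENSG00000123200.16; chromosome 13, 45954465 to 46052746), a zinc finger subunit that anchors the complex in the nucleus, had 3 listed transcripts, all protein-coding, with 4020 counts. ZC3H13-202 (ENST00000282007.7) held 3226 or 80.3%, the highest share of a leading transcript among the 9 genes with more than 1 listed transcript. ZC3H13-201 had 708 counts (17.6%) and ZC3H13-203 had 85.6 (2.13%).

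CBLL1 (ENSG00000105879.12; chromosome 7, 107744142 to 107761667), the ubiquitin ligase also known as HAKAI, drew the fewest reads of the 10 genes, 600.1 counts over 6 transcripts. CBLL1-201 (ENST00000222597.6) had 414 counts (69.0%), CBLL1-202 had 81.7 (13.6%) and CBLL1-205 had 36.9 (6.16%), all protein-coding. The other 3, from 18.3 to 28.7 counts, included 1 retained-intron and 1 nonsense-mediated-decay transcript.

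The RNA-binding adaptors drew the most reads and had no listed transcript of a type other than protein-coding. RBM15 (ENSG00000162775.16; chromosome 1, 110339377 to 110346677) had 12580.1 counts over 7 transcripts, and RBM15B (ENSG00000259956.2; chromosome 3, 51391285 to 51397908) had 7320 in its single listed transcript, RBM15B-201 (ENST00000563281.2). In RBM15, RBM15-206 (ENST00000650953.2) held 6706 counts (53.3%), followed by RBM15-207 with 2145 (17.0%), RBM15-209 with 2075 (16.5%) and RBM15-204 with 1208 (9.60%). The other 3 ran from 83.6 to 275 counts. Coding transcripts alone were thus listed for RBM15, RBM15B and ZC3H13. Members are compared here with the 10075 protein-coding genes of the table that had at least 2 listed transcripts and 100 mean normalized counts, which include 9 of the 10 members and leave out RBM15B. Of these compared genes, 18.9% had coding transcripts alone, as did RBM15 and ZC3H13 among the 9.

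METTL16 (ENSG00000127804.13; chromosome 17, 2415715 to 2511888) had 1289 counts over 6 transcripts, and 59.4% of them lay outside its only listed protein-coding transcript. METTL16-208 (ENST00000576556.5), annotated as nonsense-mediated decay, had 579 counts or 44.9% of the gene. The protein-coding METTL16-201 (ENST00000263092.11) had 524 counts or 40.6%. Their ratio was 1.10, and without a value per library it is unknown whether they differed by more than the spread between replicates. The processed transcript METTL16-206 had 75.7 counts (5.87%), and the other 3 ran from 4.91 to 61.4. Both nonsense-mediated-decay transcripts of METTL16 together had 640.2 counts, a share of 49.7%. This share was above that of 96.1% of the compared genes, in which the mean share was 7.02% and the median 0. By the mean alone, the leading transcript was of this type in 572 of the 10075 compared genes (5.68%), a count that includes METTL16 with its uncertain order. METTL14, with its share of 26.1%, stood above 90.2% of the compared genes, and VIRMA, with 14.0%, above 83.9%. Nonsense-mediated-decay transcripts were listed for 6 of the 9 members in this comparison and for 37.1% of the compared genes. The other compared genes, without such a transcript, rank below any member that has one. These ranks were not matched on the number of listed transcripts.

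MAT2A (ENSG00000168906.13; chromosome 2, 85539168 to 85545281) showed the other pattern, with retained introns and no listed nonsense-mediated-decay transcript. Its 5 transcripts had 1963 counts in all. The protein-coding MAT2A-201 (ENST00000306434.8) had 1357 counts or 69.1%. The retained-intron MAT2A-203 (ENST00000465151.5) had 249 counts (12.7%), the protein-coding MAT2A-202 (ENST00000409017.1) had 174 (8.87%), the retained-intron MAT2A-204 (ENST00000469221.5) had 163 (8.30%) and the retained-intron MAT2A-205 had 20.0. Retained-intron transcripts summed to 432 counts, 22.0% of the gene, and MAT2A-201 had 3.14 times as many. The share was above that of 92.3% of the compared genes, whose mean share was 5.45%. METTL3, with 17.1%, stood above 90.1% of them, and the other members had at most 3.81%. Retained-intron transcripts were listed for 6 of the 9 members in this comparison and for 49.3% of the compared genes. Here too, compared genes without such a transcript rank below any member that has one, and transcript number was not matched. The table gives no exon structure, so which MAT2A intron these transcripts keep is not analysed here.

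**Figure D2:**
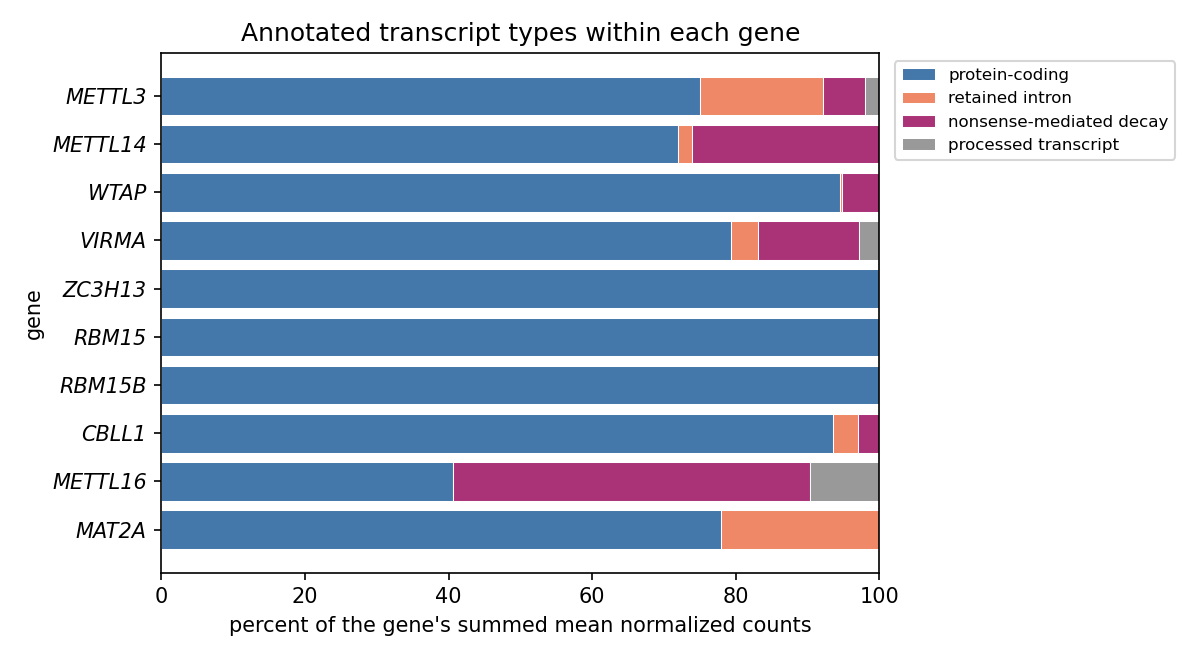
Each bar divides the summed mean normalized counts of 1 gene, as a percent, among the annotated types of its listed transcripts. METTL16 has 40.6% in protein-coding and 49.7% in nonsense-mediated-decay transcripts, MAT2A has 22.0% in retained-intron transcripts, and ZC3H13, RBM15 and RBM15B are protein-coding throughout.

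**Figure D3:**
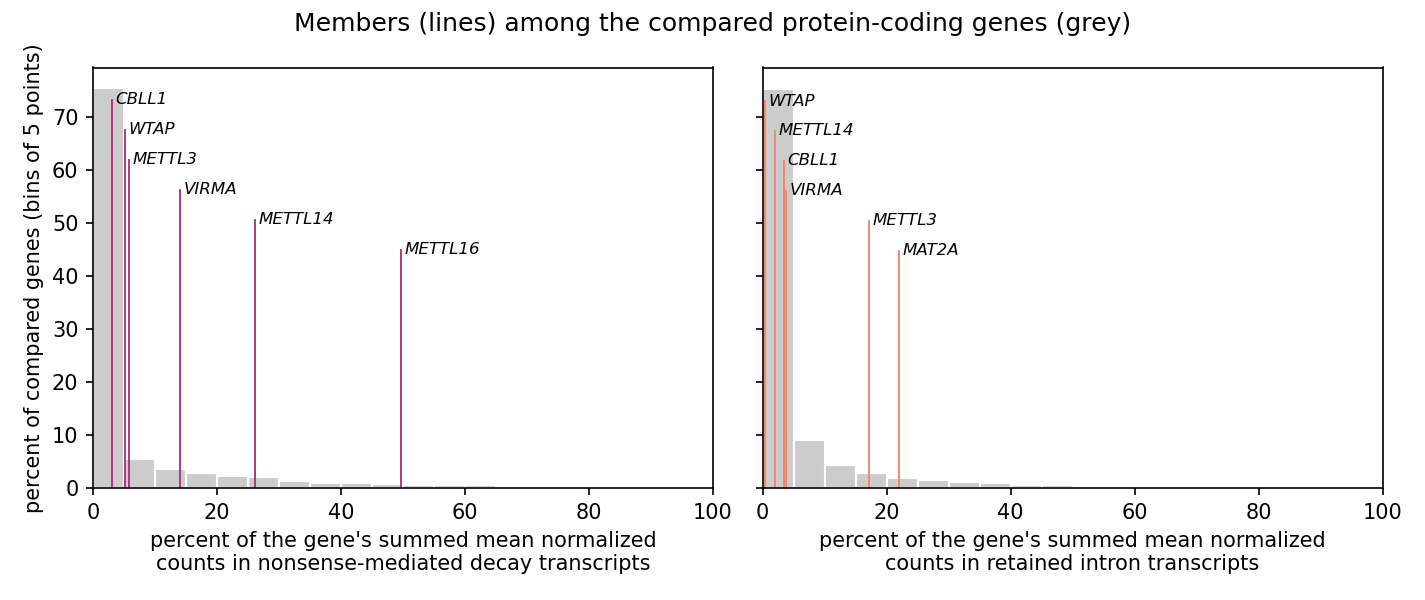
Grey bars give the percent of the 10075 compared genes in each bin of 5 percentage points of the share of counts in nonsense-mediated-decay (left) or retained-intron (right) transcripts, and each line marks a member with a share above 0 at its own share. The highest member shares are METTL16 at 49.7% and METTL14 at 26.1% on the left side, and MAT2A at 22.0% and METTL3 at 17.1% on the right side. All lie inside the range of the compared genes.

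The share held by the leading transcript varied widely among the members. Over the 9 genes with more than 1 listed transcript the median share of the leading transcript was 61.3%, from 43.6% in VIRMA to 80.3% in ZC3H13, and 6 of the 9 exceeded 50%. The median over the compared genes was 60.0%, and 66.4% of them exceeded 50%. Set beside genes with as many listed transcripts, METTL3 had a higher leading share than 87.8% of 442 genes, and METTL14, METTL16 and VIRMA were higher than 31.8% of 1351, 31.8% of 1161 and 32.6% of 861 genes. The other 5 members lay between, from 54.8% for RBM15 to 74.5% for CBLL1.

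Reads that match more than 1 transcript of a gene were apportioned by RSEM, the authors' counting program, from a model of transcript abundance. The shares above are such estimates, and the number of reads unique to a transcript is unknown. The part of this assignment in the shares of METTL16 and MAT2A was not tested. Some loci also overlap a neighbour in RefSeq, METTL3 with TOX4 (1403 mean normalized counts), WTAP with SOD2 (1265), RBM15B with DCAF1 (2064) and MAT2A with GGCX (1355). The libraries came from a stranded kit, but the strand setting of the counting is not given in the sources used here, so reads in an overlap cannot be told apart. RBM15-AS1, antisense to RBM15 by name, had 8.90 counts.

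Of the compared genes, all with more than 1 listed transcript, 88.2% were led by a protein-coding transcript, the share to set beside each such count in this paragraph. Among the other genes of the pathway, 12 of 13 m6A readers and erasers were listed, and 10 of the 12 were led by a protein-coding transcript. The exceptions were the demethylase FTO, led by the nonsense-mediated-decay FTO-220 with 48.7% of the gene's counts, and the reader IGF2BP3, led by the nonsense-mediated-decay IGF2BP3-202 with 29.0%. In ALKBH5, the other m6A demethylase, the single listed transcript was protein-coding, with 4381 counts. ALKBH5 is among the 10 but would fall outside the compared genes. YTHDC1 itself had 55488 counts, of which 99.6% were protein-coding, and reads of the vector cannot be told apart from those of the endogenous gene. In a short list of other adenosine N6 RNA methyltransferases and a partner, all 4 genes were led by a protein-coding transcript. These were the cap-adjacent methyltransferase PCIF1, METTL5, its partner TRMT112, and ZCCHC4. Of 7 genes for S-adenosylmethionine and homocysteine enzymes, 6 were listed and 5 of these were led by a protein-coding transcript. The exception was MTRR, which keeps methionine synthase active, led by the nonsense-mediated-decay MTRR-223 with 39.6%. MTR, the methionine synthase itself, was led by a protein-coding transcript with 27.7% of its counts, but nonsense-mediated-decay transcripts together held 42.0% and protein-coding ones 45.6%, against 49.7% and 40.6% in METTL16. MAT2B, the regulatory partner of MAT2A, had 95.4% of its 425 counts in protein-coding transcripts and 1.14% in retained-intron transcripts, against 78.0% and 22.0% for MAT2A. MAT1A, the liver form of the enzyme, was not listed.

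The labelled cell line was checked against its markers. The mesenchymal markers VIM, CD44, AXL, CAV1, ANXA1 and LGALS1 were all listed, with 5875 to 80785 mean normalized counts. Of 6 genes that the line should lack or hold low, ESR1 and PGR were not listed, and CDH1, EPCAM, ERBB3 and GATA3 had 10.0, 78.3, 238 and 584 counts. By read support GATA3 did not meet this expectation, with nearly as many counts as CBLL1 (600.1), which stood above 64.5% of all listed genes. No limit for a low count was set, and the counts take no account of transcript length. The nuclear RNAs MALAT1 and NEAT1 had 45810 and 4322 counts. Of the blood cell genes, PTPRC had 3.81 counts and HBB was not listed.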

How the data were processed

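rRNA-depleted RNA of 2 Flag-YTHDC1 IP and 2 input libraries of MDA-MB-231 cells was sequenced. STAR (version 2.7.2b) was used by the authors for mapping to a human transcriptome (GRCh38, GENCODE annotation), RSEM (version 1.2.31) for counts per transcript, RUVSeq for batch effects and DESeq2 for normalization, after low transcripts were removed. Versions and build are from the submitters' processing notes. The deposited signal used here is 1 value per transcript, a mean normalized count that pools the IP and input libraries. Columns of the authors' own comparison of IP with input (fold change with its error, raw and adjusted significance) were left out, so no test was run.

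Members were matched by gene name, and all 10 genes and 55 transcripts were also matched by Ensembl identifier. Shares are percents of a gene's summed mean normalized counts. Members were set beside protein-coding genes with at least 2 listed transcripts and 100 counts. A transcript holding at least 5% of its gene was named individually. Loci and overlaps were taken from RefSeq (GRCh38.p14). Members and lists were chosen with earlier results of these data known. Alternatives were minimum counts of 10 and 100, protein-coding transcripts alone, matching by identifier and shares of listed transcripts. Python 3.11.15, numpy 2.4.6, pandas 2.3.3 and matplotlib 3.10.9 were used, and the summaries were tested on simulated data.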

Additional observations from a re-analysis of the deposited data

How the results depend on the processing

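No paired analysis was possible because the table gives no value for a single library, and for the same reason no replicate could be left out. Division by transcript length was not run, since no lengths were at hand. With no replicate spread, a value was taken as unchanged within 1.5 times. High shares could not pass this limit upwards, since a share cannot exceed the whole gene. A minimum of 100 mean normalized counts left 28 of the 55 transcripts and a mean share of 0 for processed transcripts over the members. Counting listed transcripts in place of their reads raised the mean share of retained-intron transcripts from 4.87% to 17.5% and of processed transcripts from 1.46% to 9.76%, and the retained-intron share of MAT2A from 22.0% to 60%. The mean share of protein-coding transcripts fell from 83.3% to 59.0%, which stayed within 1.5 times. With protein-coding transcripts alone, METTL16 fell from 1289 to 524 counts, all in METTL16-201, its single coding transcript. The other 9 genes are led by a coding transcript, so this alternative could not change their leader. Over the minimum counts, the nonsense-mediated-decay share of METTL16 ran from 49.7% to 52.5% and that of METTL14 from 26.1% to 28.9%. As shares of listed transcripts, which do not measure reads, they were 33.3% and 20%. A minimum of 10 counts and matching by identifier moved no value past 1.5 times. How the reads were divided among transcripts limits every share, and this was not tested.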
